A study of Mus musculus with 12 samples.

Results

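The core pluripotency factors considered here are Nanog, Pou5f1, Sox2, Sall4, Utf1 and Lin28a, genes expressed in naive and in primed pluripotent cells. They were taken by name, together with all their array probe sets, and no measured value enters the rule, although earlier results of these data were known when the list was drawn up. They make up 6 of 18193 measured genes and 10 of 34945 probe sets with a single gene symbol. The brightest probe set stood for each gene: 1429388_at for Nanog, 1417945_at for Pou5f1, 1416967_at for Sox2, 1424152_at for Sall4, 1416899_at for Utf1 and 1437752_at for Lin28a. Their RNA was measured in embryoid bodies at day 2.5, which are aggregates grown from mouse embryonic stem cells of strain 129 without LIF, the cytokine that holds these cells in the naive state. The cells were Smad4-null, had Trim33 knocked down (Trim33-KD) or were wild type (WT). Each kind received activin at 50 ng/ml (ac) or SB431542 (SB), an inhibitor of the activin and nodal type I receptors, for 2 h, which gave 6 groups of 2 Affymetrix arrays. The labels give the SB431542 dose as 10 mM. No group went untreated, so every response below sets activin against receptor inhibition. The sources used here do not give how the knock-down was made or whether each mutant line was 1 clone. The labels also do not say that replicates were separate cultures, and if they were not, the p-values cover only the spread among these arrays.

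Oct4 (the product of Pou5f1), Sox2 and Nanog are transcription factors that bind many of the same enhancers in embryonic stem cells and hold the pluripotent state together. Oct4 and Sox2 bind side by side on composite DNA sites, and Nanog and Utf1 are among the genes they are known to switch on. Activin and nodal signal through Smad2 and Smad3 with Smad4 as their shared partner, and in primed cells this pathway is known to sustain Nanog; Trim33, a ubiquitin ligase of the nucleus, can bind the same 2 receptor-regulated Smads.

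The promoter windows of the 4 members that differed between Smad4-null and WT embryoid bodies are shown because these genes are textbook targets or sources of Oct4 and Sox2. They were taken from RefSeq (GRCm38.p6) and run from 250 bases before to 50 bases after a gene start on the plus strand. They lie at chr6:122707239-122707538 for Nanog, chr17:35505782-35506081 for Pou5f1, chr3:34649745-34650044 for Sox2 and chr7:139943606-139943905 for Utf1. Capitals mark the POU core ATGCAAA, the Sox cores CATTGT and CTTTGT and the GC box GGGCGG on either strand.
Nanog: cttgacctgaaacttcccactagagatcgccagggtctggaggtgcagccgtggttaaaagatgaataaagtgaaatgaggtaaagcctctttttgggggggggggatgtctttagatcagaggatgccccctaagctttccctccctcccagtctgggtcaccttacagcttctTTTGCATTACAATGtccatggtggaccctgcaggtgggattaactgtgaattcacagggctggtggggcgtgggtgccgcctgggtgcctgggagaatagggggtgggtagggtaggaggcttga
Pou5f1: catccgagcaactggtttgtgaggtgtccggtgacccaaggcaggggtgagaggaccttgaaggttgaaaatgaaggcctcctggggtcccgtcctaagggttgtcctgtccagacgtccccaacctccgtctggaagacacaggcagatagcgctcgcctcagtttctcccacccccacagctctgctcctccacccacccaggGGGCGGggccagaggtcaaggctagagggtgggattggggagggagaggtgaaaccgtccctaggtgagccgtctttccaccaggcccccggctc
Sox2: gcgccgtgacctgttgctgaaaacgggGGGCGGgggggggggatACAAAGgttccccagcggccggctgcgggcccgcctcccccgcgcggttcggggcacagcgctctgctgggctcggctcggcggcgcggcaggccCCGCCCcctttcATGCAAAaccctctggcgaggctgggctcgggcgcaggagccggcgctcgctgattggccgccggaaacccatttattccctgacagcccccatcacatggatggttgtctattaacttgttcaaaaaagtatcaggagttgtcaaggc
Utf1: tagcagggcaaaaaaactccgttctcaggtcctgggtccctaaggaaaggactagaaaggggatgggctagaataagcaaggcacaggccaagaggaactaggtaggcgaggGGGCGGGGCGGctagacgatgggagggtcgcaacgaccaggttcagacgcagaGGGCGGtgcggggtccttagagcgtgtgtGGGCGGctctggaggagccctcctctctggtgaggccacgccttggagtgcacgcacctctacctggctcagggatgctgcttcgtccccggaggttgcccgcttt

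In the Nanog window shown, a Sox core and a POU core stood on the same strand 1 base apart. The first capital lay 75 bases before the gene start of that window. It lay 151 bases before the start of the overlapping Nanog window at chr6:122707315-122707614. The search allowed up to 3 bases between the cores, and this arrangement occurred in 7 of 32851 windows of the table (0.0213%), of which 2 were overlapping Nanog windows. The Sox2 window held a POU core 99 bases before the start, a sequence found in 4.63% of windows, and a Sox core 206 bases before it, found in 28.6%. The Utf1 window held 4 GC boxes, 2 of them overlapping, and the Pou5f1 window shown held 1. The Sox2 window held GC boxes 223 and 111 bases before the start. At least 1 GC box was found in 35.7% of windows. A second Pou5f1 window, at chr17:35508557-35508856, held a Sox core 158 bases before its start. The Lin28a window held a Sox core and a GC box. None of the 7 windows of the 5 members in the table held the octamer ATGCAAAT, the Foxh1 site AATCCACA or the Smad palindrome GTCTAGAC, which were found in 1.74%, 0.855% and 0.213% of all windows. These matches describe letters in a window and were not tested as binding sites; Sall4 was not in the table.

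The brightest probe set of every member lay at a log2 signal of 11.7 or more on all 12 arrays, while the median of all probe sets on an array lay between 5.85 and 6.30. By these probe sets all 6 factors were bright in every group, although the median covers all probe sets and not the brightest of each gene. The knock-down was visible in the arrays, with Trim33 at 34.4% of its WT signal in Trim33-KD arrays (limma adjusted p = 0.0101), while the Smad4 probe set stood at 115% in Smad4-null arrays and so did not check that label. The sources used here do not place that probe set inside or outside the mutated region. The WT-ac and WT-SB arrays of replicate 1 stood apart by a low 18S rRNA signal (5.53 and 5.82, against 7.56 to 10.2 on the others). Smad4-null-ac replicate 1 and WT-SB replicate 2 had the narrowest spread of log2 signal (SD 3.13 and 3.07, against 3.24 to 3.39 on the others).

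**Figure D1:**
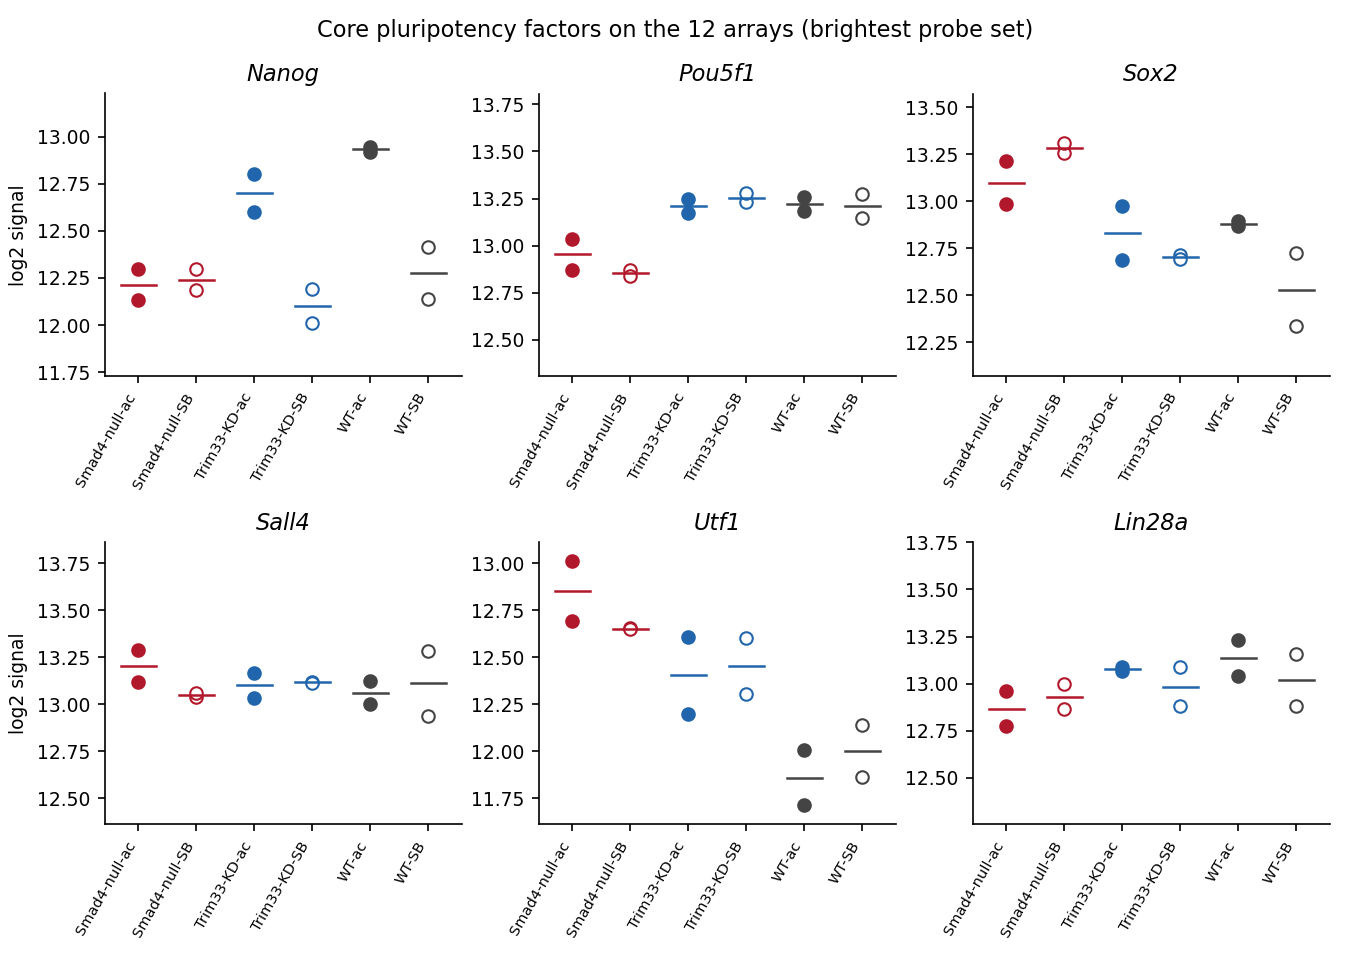
Log2 signal (y axis) of the brightest probe set of each core factor in the 6 groups (x axis); each point is 1 array, filled for activin and open for SB431542, and bars are group means (n = 2). Nanog is high in the activin arrays of Trim33-KD and WT, Sox2 and Utf1 are highest in Smad4-null arrays, Pou5f1 is lowest there, and Sall4 and Lin28a differ little between groups.

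Activin set against SB431542 for 2 h moved none of the 6 factors past the threshold in any genotype. Nanog stood apart from the others by size, with activin above SB431542 by 0.60 log2 units in Trim33-KD and 0.66 in WT embryoid bodies, and by -0.03 in Smad4-null. Sox2 had smaller values and the other 4 factors stayed between -0.14 and 0.20. In limma over all genes the share called was 0.0110% in Smad4-null (1239 genes at an unadjusted p under 0.05), 0.0110% in Trim33-KD (766 genes) and 0.0330% in WT (731 genes), and a count of 0 among 6 factors lies near this background.

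Nanog, a homeodomain factor that guards the pluripotent state, read 12.13 and 12.30 in Smad4-null-ac arrays, against 12.19 and 12.30 in Smad4-null-SB arrays. In Trim33-KD it read 12.80 and 12.60 with activin, against 12.01 and 12.19 with SB431542. In WT it read 12.95 and 12.92 with activin, against 12.41 and 12.14 with SB431542. Both activin arrays thus lay above both SB431542 arrays in Trim33-KD and in WT, while the Smad4-null arrays of both treatments overlapped and lay within the range of the SB431542 arrays of the other lines. The response was -0.03 (95% interval -0.36 to 0.31) in Smad4-null, 0.60 (0.26 to 0.93; 1.51-fold, limma adjusted p = 0.763) in Trim33-KD and 0.66 (0.33 to 0.99; 1.58-fold, adjusted p = 0.548) in WT. By its unadjusted limma p, Nanog ranked 85 among 18193 genes in Trim33-KD and 68 in WT. Many of the 26 alternative settings leave the estimate itself unchanged. Over all of them the Nanog response ranged from 0.50 to 0.70 in Trim33-KD and from 0.52 to 0.80 in WT, and it was called in none.

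The difference between the Smad4-null and the WT response of Nanog was -0.69 (95% interval -1.16 to -0.22, limma adjusted p = 0.528), which did not pass over all genes. The matching difference for Trim33-KD was -0.06 (-0.53 to 0.41, adjusted p = 1), an interval that still allows a response weaker by 0.53 or stronger by 0.41. Both comparisons share the WT arrays, and in both 0 of 18193 genes were called (0%), with 1317 and 485 genes at an unadjusted p under 0.05 in limma. Median centring of the arrays moved the median of all genes in the Smad4-null difference to -0.01, against 0.11 as deposited, and Nanog kept its sign.

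Sox2, the HMG-box partner of Oct4, read 12.98 and 13.21 in Smad4-null-ac arrays, against 13.26 and 13.31 in Smad4-null-SB arrays. It read 12.97 and 12.69 in Trim33-KD-ac arrays, against 12.71 and 12.69 in Trim33-KD-SB arrays, and 12.87 and 12.89 in WT-ac arrays, against 12.72 and 12.34 in WT-SB arrays. Activin arrays lay below SB431542 arrays in Smad4-null and above them in WT, and in Trim33-KD they overlapped. The responses were -0.19 (95% interval -0.57 to 0.20) in Smad4-null, 0.13 (-0.26 to 0.51) in Trim33-KD and 0.35 (-0.04 to 0.74) in WT. The Smad4-null response minus the WT response was -0.54 (-1.08 to 0.01, limma adjusted p = 0.698). The WT value rests partly on WT-SB replicate 2, the array of narrowest spread, and was 0.16 without it.

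For Pou5f1, Sall4, Utf1 and Lin28a every 95% interval of a response held 0. The widest belonged to Utf1, with 0.20 (-0.28 to 0.68) in Smad4-null, -0.05 (-0.53 to 0.43) in Trim33-KD and -0.14 (-0.62 to 0.34) in WT. Pou5f1 had the tightest, with 0.10 (-0.15 to 0.35), -0.04 (-0.29 to 0.21) and 0.01 (-0.24 to 0.26) in the same order of lines, and the bound farthest from 0 was 0.35.

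**Figure D2:**
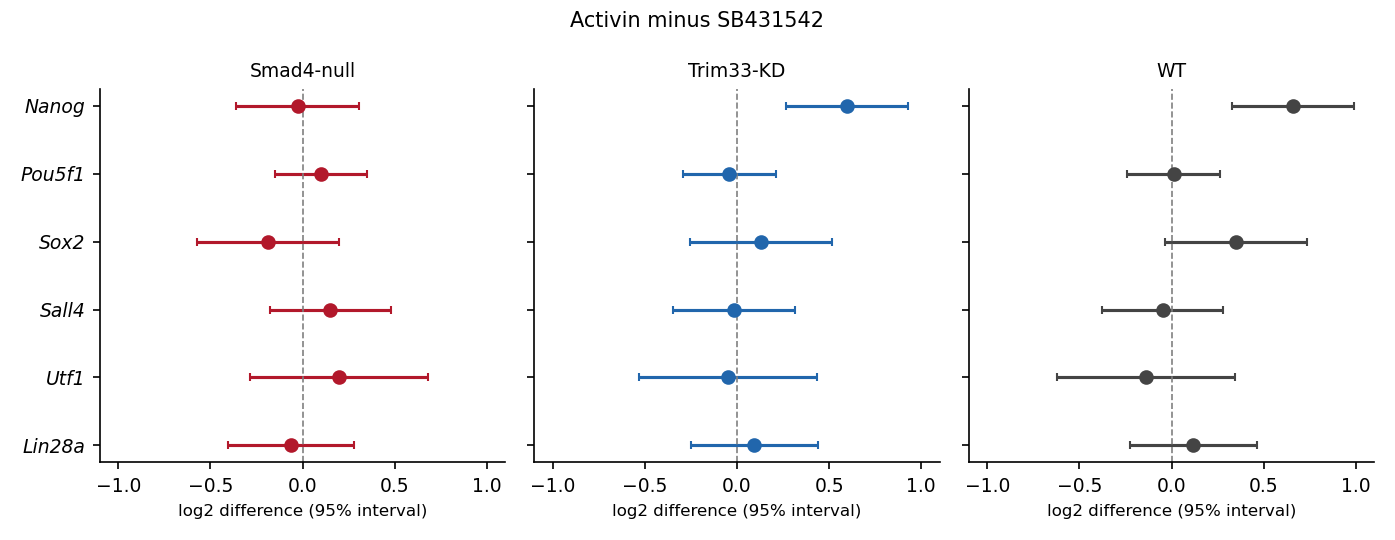
Activin minus SB431542 (x axis, log2 difference) for each core factor in Smad4-null, Trim33-KD and WT embryoid bodies; points are limma estimates from 2 arrays against 2 and bars are 95% intervals. The Nanog intervals lie above 0 in Trim33-KD and WT and span 0 in Smad4-null, and the intervals of the other 5 factors span 0 in all 3 lines.

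The other genes of the network gave a frame for these responses. Of 17 measured core partners (DNA-binding partners, Lin28 relatives and epiblast surface genes), 0 were called in Smad4-null, in Trim33-KD or in WT, and so were 0 of 13 naive pluripotency genes. Of 7 activin and nodal feedback genes, 0 rose in Smad4-null, 0 in Trim33-KD and 3 in WT, where the inhibitory Smad gene Smad7 rose by 3.11, the nodal antagonist gene Lefty1 by 2.81 and Pmepa1, which restrains Smad signalling, by 2.08. In Trim33-KD the same genes had 2.56 (Smad7, limma adjusted p = 0.0562), 1.81 (Lefty1, adjusted p = 0.151) and 1.91 (Pmepa1, adjusted p = 0.0562), and the median of the 7 was 1.21, against 1.195 in WT. In Smad4-null Smad7 had 0.23, Lefty1 1.26 (adjusted p = 0.311) and Pmepa1 0.52, with a median of 0.48. Tdgf1, which encodes the nodal co-receptor Cripto, had 0.38 in Trim33-KD and 0.27 in WT, and neither value was called. Fgf15, a secreted FGF of the primed list, rose by 2.56 in Trim33-KD and by 2.24 in WT, and was the only one of 10 primed genes called in a response. In Smad4-null Fgf15 had 0.63 (limma adjusted p = 0.396).

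Between the lines, averaged over both treatments, 4 of the 6 factors differed between Smad4-null and WT embryoid bodies, and they split in direction. Utf1 and Sox2 rose, while Pou5f1 and Nanog fell; Sall4 and Lin28a were not called. Without the WT arrays of replicate 1, those of low 18S signal, a setting chosen after the data were seen, 0 of the 6 factors were called and 1748 genes still were. The 4 differences then stood at 0.68 for Utf1, 0.58 for Sox2, -0.32 for Pou5f1 and -0.30 for Nanog, with fewer degrees of freedom. With any 1 array left out, the difference ranged from 0.74 to 0.90 for Utf1 and from 0.39 to 0.58 for Sox2. It then ranged from -0.35 to -0.27 for Pou5f1 and from -0.44 to -0.31 for Nanog. Which of these factors kept a call depended on the array left out. With median centring Utf1 and Sox2 were called and Pou5f1 and Nanog were not. Of all genes, 18.4% were called in this comparison, 7.12% raised and 11.3% lowered, so the count among the factors is above the share of all genes. In the same fit the share was 25.4% among the 9096 brighter genes (the upper 50% by mean signal) and 11.5% among the other 9097. The 6 factors had a median of -0.07 and all genes a median of -0.03. Line and genotype change together, so these differences cannot be assigned to Smad4 alone.

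Utf1, a chromatin-bound factor of undifferentiated cells, read 13.01 and 12.69 in Smad4-null-ac arrays and 12.66 and 12.65 in Smad4-null-SB arrays. It read 12.20 and 12.61 in Trim33-KD-ac, 12.31 and 12.60 in Trim33-KD-SB, 11.72 and 12.01 in WT-ac and 11.86 and 12.14 in WT-SB arrays. All 4 Smad4-null arrays lay above all 4 Trim33-KD arrays, and these in turn above all 4 WT arrays. Utf1 was higher in Smad4-null than in WT by 0.82 (SE 0.15, 95% interval 0.48 to 1.16; 1.77-fold, n = 4 each, limma adjusted p = 0.00801). It rose within the activin arrays (0.99, adjusted p = 0.0269) and had 0.65 within the SB431542 arrays (adjusted p = 0.0989). A further Utf1 probe set, 1443786_at, gave 9.43 to 9.57 in Smad4-null, 8.63 to 9.31 in Trim33-KD and 7.97 to 8.66 in WT arrays, and a Smad4-null minus WT difference of 1.15 (SE 0.21, adjusted p = 0.0116 over all probe sets). A dim Utf1 probe set, 1458333_x_at, ranged from 2.63 to 5.93 with overlapping groups, and with the mean of all 3 the difference was 0.48 (adjusted p = 0.108). Without the WT arrays of low 18S signal the difference was smaller at both brighter probe sets, 0.68 at 1416899_at and 0.88 at 1443786_at.

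For Sox2, with the array values above, all 4 Smad4-null arrays lay above all 4 WT arrays. Sox2 averaged 13.19 ± 0.14 in the Smad4-null and 12.70 ± 0.26 in the WT arrays (SD, n = 4 each), a rise of 0.49 (SE 0.12, limma adjusted p = 0.0265). Within the SB431542 arrays it rose by 0.75 (adjusted p = 0.0328), and within the activin arrays the value was 0.22 (adjusted p = 0.465). The difference was 0.58 without the low 18S arrays (adjusted p = 0.0520), 0.45 without the narrow-spread arrays (adjusted p = 0.0641) and 0.39 with quantile normalization (adjusted p = 0.0953), so that the call was lost while the size stayed within 0.39 to 0.58.

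Pou5f1 encodes Oct4, the POU-domain factor without which pluripotent cells do not persist. It read 13.04 and 12.87 in Smad4-null-ac, 12.87 and 12.84 in Smad4-null-SB, 13.17 and 13.25 in Trim33-KD-ac, 13.23 and 13.28 in Trim33-KD-SB, 13.26 and 13.18 in WT-ac and 13.15 and 13.27 in WT-SB arrays. All 4 Smad4-null arrays lay below the 8 others, while the Trim33-KD and WT arrays overlapped. Its average was 12.90 ± 0.09 over Smad4-null arrays and 13.21 ± 0.06 over WT arrays (SD, n = 4 each), so that Pou5f1 fell by 0.31 (SE 0.08, limma adjusted p = 0.0281). The value was -0.36 within SB431542 arrays (adjusted p = 0.0880) and -0.27 within activin arrays (adjusted p = 0.181). Without the low 18S arrays it was -0.32 (adjusted p = 0.099). Among the 4 factors that differed, Pou5f1 had the smallest difference and the smallest standard error.

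Nanog was lower in Smad4-null by 0.38 on average (95% interval -0.61 to -0.14, limma adjusted p = 0.0396). In the activin arrays Nanog fell by 0.72 (interval -1.05 to -0.39, adjusted p = 0.0235), and in the SB431542 arrays the value was -0.03 (-0.37 to 0.30). The test of that contrast is the response difference given above, which did not pass. With the replicate number as a block the call of the average was lost (adjusted p = 0.0630), and without the low 18S arrays it was -0.30 (adjusted p = 0.192). Of all genes 9.10% were called within the SB431542 arrays and 9.29% within the activin arrays, where 1 (Sox2) and 2 (Nanog and Utf1) of the 6 factors were called.

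Sall4, a zinc-finger partner of Oct4, ranged from 13.04 to 13.29 in Smad4-null, 13.04 to 13.16 in Trim33-KD and 12.94 to 13.29 in WT arrays. Its groups overlapped, and its Smad4-null minus WT difference was 0.04 (95% interval -0.19 to 0.27). Lin28a, an RNA-binding protein that blocks maturation of let-7 microRNAs, ranged from 12.77 to 12.996 in Smad4-null, 12.88 to 13.09 in Trim33-KD and 12.88 to 13.23 in WT arrays, with a difference of -0.18 (-0.42 to 0.06, limma adjusted p = 0.305). A second Lin28a probe set, 1421749_at, lay between 10.13 and 10.85 and gave 0.08. A second Sall4 probe set, 1424153_s_at, read 11.10 and 11.13 on the WT-ac and WT-SB arrays of replicate 1, the arrays of low 18S signal, and 9.92 to 10.29 on the other 10 arrays. Its Smad4-null minus WT value was -0.56 (adjusted p = 0.287 over all probe sets) with those arrays and -0.04 without them, and the part of the 18S signal in it was not tested.

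**Figure D3:**
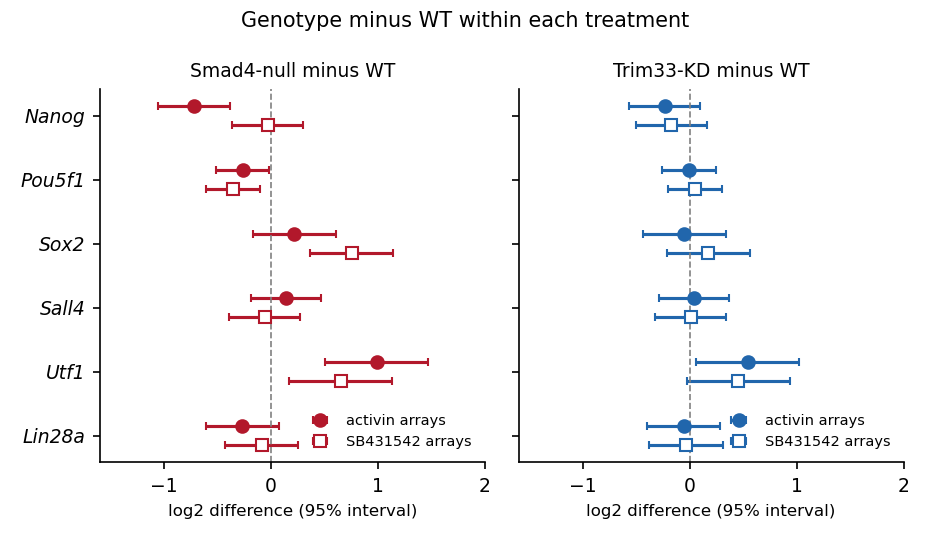
Differences from WT (x axis, log2) for each core factor in Smad4-null and Trim33-KD embryoid bodies within the activin arrays (filled circles) and the SB431542 arrays (open squares); bars are 95% intervals of limma estimates from 2 arrays against 2. In Smad4-null, Nanog lies at -0.72 in the activin and -0.03 in the SB431542 arrays, Sox2 at 0.22 and 0.75, and both Utf1 intervals lie above 0.

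**Figure D4:**
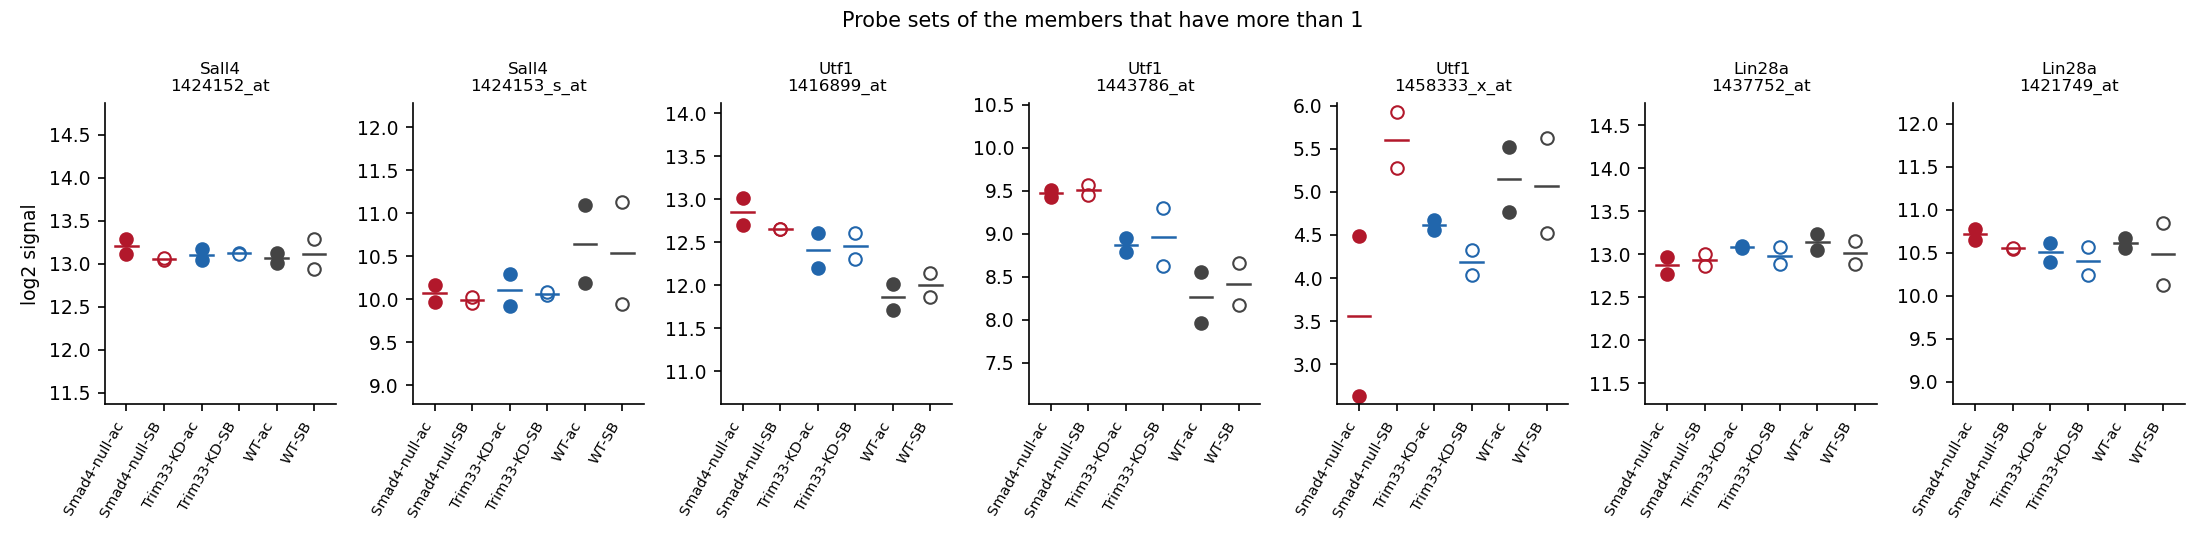
Log2 signal (y axis) of every probe set of the 3 members that have more than 1, by group (x axis); points are arrays, filled for activin and open for SB431542, and bars are group means (n = 2). The 2 brighter Utf1 probe sets give the same order of lines, and the second Sall4 probe set has 2 WT arrays above 11.0 that the first does not show.

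In Trim33-KD embryoid bodies 0 of the 6 factors differed from WT in limma, where 0.649% of all genes were called and 3087 had an unadjusted p under 0.05. Utf1 came closest, with 0.50 (95% interval 0.16 to 0.84; 1.41-fold, adjusted p = 0.166) and all 4 Trim33-KD arrays above all 4 WT arrays. It passed when only the upper 50% of genes by signal were tested (adjusted p = 0.0373) and with a trended and robust prior (0.0400). It was 0.12 (adjusted p = 0.753) with the mean of its probe sets and 0.36 (adjusted p = 0.442) without the low 18S arrays. The probe set 1443786_at gave 0.58 (adjusted p = 0.269 over all probe sets). Nanog had -0.20 (-0.44 to 0.03), and Pou5f1, Sox2, Sall4 and Lin28a lay between -0.05 and 0.06. Median centring moved the median of all genes to 0.09, against -0.04 as deposited, and put Utf1 at 0.64 and Nanog at -0.06 without a call. These values share the WT arrays with those of Smad4-null.

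Set against Smad4-null directly, 2 of 6 factors differed in Trim33-KD, with 18.4% of all genes called. Pou5f1 was higher by 0.33 (SE 0.08, limma adjusted p = 0.0228) and Sox2 lower by 0.42 (SE 0.12, adjusted p = 0.0438). Utf1 had -0.32 (95% interval -0.66 to 0.02, adjusted p = 0.180) although its arrays did not overlap. In falling order of group means, Utf1 had 12.85 in Smad4-null-ac, 12.65 in Smad4-null-SB, 12.45 in Trim33-KD-SB, 12.41 in Trim33-KD-ac, 12.001 in WT-SB and 11.86 in WT-ac. The 2 treatments of a line were neighbours throughout, and every 95% interval of a difference within such a pair held 0. Sox2 was highest in Smad4-null-SB (13.28) and lowest in WT-SB (12.53), and Nanog was lowest in Trim33-KD-SB (12.10) and highest in WT-ac (12.93). The group means spanned 0.99 for Utf1, 0.83 for Nanog, 0.75 for Sox2, 0.40 for Pou5f1, 0.27 for Lin28a and 0.15 for Sall4.

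The partners of the core factors also split between Smad4-null and WT. Of 17 measured core partners, 6 rose, 1 fell and 10 were not called, with a median of 0.15 against -0.03 for all genes. Gdf3, a TGF-beta family ligand of pluripotent cells, rose to 11.23 ± 0.15 in Smad4-null, against 10.13 ± 0.10 in WT arrays (SD, n = 4 each). Dppa4 rose by 0.57 and Dppa2, its chromatin-binding partner, by 0.50, and Cdh1, which encodes E-cadherin, rose by 0.55. Tdgf1 fell by 0.70. The repressor gene Zfp281 (0.42) and the Nanog-associated gene Rif1 (0.45) completed the raised genes.

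Most naive pluripotency genes rose. Of 13 measured, 9 rose, 1 fell and 3 were not called in Smad4-null against WT, with a median of 1.26. Nr0b1, which encodes the nuclear receptor Dax1, rose by 1.71, the Krüppel-like factor gene Klf4 by 1.52, Tcl1 by 1.35, the orphan nuclear receptor gene Esrrb by 1.32 and Zfp42, which encodes Rex1, by 1.26. Klf5 fell by 0.56. Each of these 5 raised genes had a larger difference than the 0.82 of Utf1, the largest among the core factors; the difference between the lists was not tested. In Trim33-KD against WT, 0 of the 13 were called, with a median of 0.16.

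Of 10 primed or formative genes, 2 rose (Pou3f1, a POU factor, by 0.92 and the DNA methyltransferase gene Dnmt3a by 0.46) and 3 fell (Fgf5, the classic epiblast FGF, by 1.43, Zic2 by 1.09 and the Wnt modulator gene Sfrp2 by 0.90) in Smad4-null. Fgf15 was not called on average but rose by 1.01 within the SB431542 arrays and fell by 0.60 within the activin arrays. In Trim33-KD the homeobox gene Otx2 fell by 0.95 and the other 9 were not called. Of 7 measured targets of Oct4 and Sox2 known from embryonic stem cells, a list that holds Nanog and Utf1 themselves, 5 rose and 1 fell in Smad4-null. Fgf4 rose by 1.56, Fbxo15 by 1.52, Lefty1 by 1.32, Zfp42 by 1.26 and Utf1 by 0.82, while Nanog was the one that fell; Dppa5a had 0.20. The list includes 2 naive genes, Fgf4 and Zfp42, so its count is not separate from theirs.

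Around Lin28a, 4 of 10 measured genes of the let-7 and Lin28 axis fell in Smad4-null and 0 rose, with a median of 0.06. Hmga2, a chromatin protein gene repressed by let-7, read 9.22, 9.21, 9.40 and 9.37 in Smad4-null arrays, against 10.20, 10.27, 10.35 and 10.26 in WT arrays, and fell by 0.97. The ARID-domain genes Arid3b and Arid3a fell by 0.68 and 0.38 and the RNA-binding protein gene Igf2bp3 by 0.35. Lin28a itself was not called, and Lin28b had 0.14. Among 9 measured relatives of the core factors, Sall1 (0.82) and Pou3f1 rose while Sall2 fell by 1.30 and Sall3 by 2.81. The Sall family thus ranged from -2.81 to 0.82 around a Sall4 value of 0.04.

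**Figure D5:**
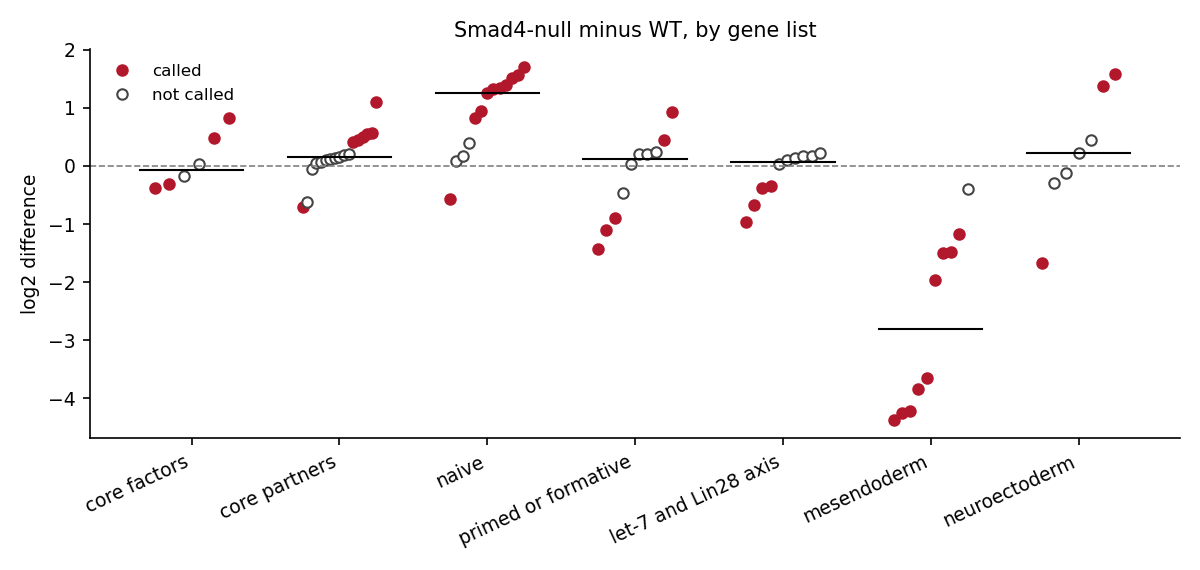
Smad4-null minus WT (y axis, log2 difference, both treatments averaged) for the members of 7 gene lists (x axis); each point is 1 gene, filled where called by limma over all genes, and bars are list medians. The core factors lie between -0.38 and 0.82, the naive genes have a median of 1.26 and the mesendoderm genes a median of -2.81.

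Of 7 activin and nodal feedback genes, 2 rose and 4 fell in Smad4-null against WT. Lefty1 rose by 1.32 and Skil, a Smad corepressor gene, by 0.45, while Pmepa1 fell by 1.11, Smad7 by 1.06, Tdgf1 by 0.70 and Nodal by 0.59. These averages join treatments with different values. Within the SB431542 arrays Lefty1 rose by 2.095 and 0 of the 7 fell, with Smad7 at 0.38 and Pmepa1 at -0.33. Within the activin arrays 0 rose while Smad7 fell by 2.49, Pmepa1 by 1.89 and Tdgf1 by 0.90, with Lefty1 at 0.54. The matching response differences, Smad4-null minus WT, were -2.88 for Smad7 and -1.55 for Lefty1, neither called (limma adjusted p = 0.237 and 0.376). In Trim33-KD, Lefty2, a nodal antagonist gene, rose by 0.78 and the other 6 were not called.

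Markers of other cells moved with the lines. The summed linear signal of 10 mesendoderm markers was 804 to 1128 in Smad4-null, 2605 to 6942 in Trim33-KD and 5131 to 10851 in WT arrays, and 9 of the 10 fell in Smad4-null. With activin against SB431542 it was 1070 to 1128 against 804 to 812 in Smad4-null, 3449 to 6942 against 2605 to 3546 in Trim33-KD and 10665 to 10851 against 5131 to 5497 in WT. The activin arrays had the higher sums in Smad4-null and in WT, and the sums overlapped in Trim33-KD. The 7 trophectoderm markers summed to 3736 to 3890 in Smad4-null, 5435 to 11403 in Trim33-KD and 4253 to 5160 in WT arrays. In Trim33-KD the 2 arrays of a treatment lay far apart, at 5754 and 11229 with activin and 5435 and 11403 with SB431542. Of the 7 markers 0 were called in Trim33-KD against WT. Krt8 and Krt18 were the brightest of them, with mean linear signals of 2428 and 2103 over the 12 arrays. Sox2 is also a factor of neural progenitors; of 7 neuroectoderm markers, Pax6 (1.59) and Tubb3 (1.38) rose and Nes fell by 1.68 in Smad4-null. Of 5 housekeeping genes 0 were called there in limma. The sums of 7 neuroectoderm markers (1892 to 2925), 8 extraembryonic endoderm markers (692 to 1034) and 8 fibroblast markers (581 to 760) differed less. Such sums follow the brightest markers and can hide changes in single genes. In Smad4-null against WT, 1 of the 8 fibroblast markers was called raised and 2 lowered. One call each, lowered, fell among the extraembryonic endoderm and the trophectoderm markers. Of the 40 markers of the 5 cell types, 9 stayed under 64 on the linear scale on all 12 arrays (Sox1, Zic1, Afp, Ttr, Elf5, Gata3, Col1a1, Lum and Postn) and 31 did not, among them the lineage factors Pax6, Cdx2, Hand1 and Hnf4a and the fibroblast genes Col1a2, Dcn and Pdgfrb. The part of these cell types in the differences of the core factors was not tested, and in bulk RNA fewer cells of a type and less RNA per cell cannot be told apart.

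Nanog, Sox2 and Utf1 had group means that spanned more than 0.5 log2 units, a limit chosen after the data were seen because no factor reached 1. Likeness was the root mean square difference of mean-centred log2 signals over 12 arrays, among 9096 genes. The genes most like Nanog were Ccn1, which encodes a secreted matrix-associated protein (0.13), Dennd2c (0.14) and the R-spondin receptor gene Lgr4 (0.16), against an SD of Nanog itself of 0.31. Most like Sox2 were Jade3 (0.0969), Rhebl1 (0.0991) and Gnpnat1 (0.101), with an SD of 0.27. Most like Utf1 were the small heat shock protein gene Hspb1 (0.0936), Llgl2 (0.104) and Pramel13 (0.110), with an SD of 0.37. No core factor was among the 3 genes most like any of these.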

How the data were processed

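Total RNA of 12 embryoid body samples was hybridized to Affymetrix arrays, 1 per sample. The authors deposited log2 signals per probe set; on the linear scale the mean of every array is 500 once 2% is trimmed at both ends. The sources used here do not give the summarization method, and the submitters' processing notes name limma without a version. The values were used unchanged. The number of arrays limits the precision. Probe sets with exactly 1 symbol (34945 of 45101) were used, and the brightest stood for each gene. A means model of 6 groups was fitted over all 18193 genes with limma 3.58.1 (lmFit, eBayes; R 4.3.3), tested on simulated data beforehand, with Benjamini-Hochberg adjustment and a threshold of 0.05 for a call. Promoter motifs were searched and figures drawn with Python 3.11.15 and matplotlib 3.10.9. The text names all members, the genes of the genotypes and the genes most like a member. In the lists it names up to 5 called genes by adjusted p (or up to 2 uncalled), though not in every comparison. The mesendoderm, trophectoderm, extraembryonic endoderm and fibroblast lists were left out of this rule and are given as counts, sums and signal levels. Zfp281, Rif1, Klf5, Skil, Dppa5a, Lin28b and Sall4's relatives beyond this rule complete a count and were chosen after their values were seen. Members and lists were chosen with earlier results of these data known. Pairing by replicate number was not assumed. Same-numbered arrays of 15 pairs of groups had correlations of their deviations from -0.299 to 0.385. Between the treatments of a line these were -0.192 in Smad4-null, 0.335 in Trim33-KD and 0.385 in WT. These values do not settle whether arrays were paired within a line, and a fit with the number as a block is given below.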

Additional observations from a re-analysis of the deposited data

How the results depend on the processing

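With 2 arrays per group every count of called factors near the threshold is fragile. Of 26 alternatives, the 4 differences called between Smad4-null and WT kept their call in 24 (Utf1), 16 (Sox2), 14 (Pou5f1) and 10 (Nanog). They ranged from 0.48 to 0.90 (Utf1), 0.39 to 0.58 (Sox2), -0.40 to -0.23 (Pou5f1) and -0.47 to -0.29 (Nanog). Many settings, such as the signal filters, the prior or leaving out a Trim33-KD array, leave these differences unchanged. A count of kept signs therefore does not measure their stability. No called value changed sign. The count of 4 factors became 2 with median centring (2 raised and 0 lowered) and with all probe sets, 1 with the mean of probe sets, with only the groups compared and without the arrays of narrow spread, and 0 without the low 18S arrays, a setting chosen after the data were seen. It was 1 in the SB431542 arrays, 2 in the activin arrays and 1 to 4 when 1 array was left out. It was 1, Utf1 alone, without either WT-ac array, Smad4-null-ac replicate 2 or either Smad4-null-SB array, and 2 without WT-SB replicate 2. Quantile normalization gave 1 raised and 2 lowered.

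Between Trim33-KD and WT the count of 0 became 1 (Utf1) in the upper 50% of genes and with a trended and robust prior, and stayed 0 whichever array was left out. Between Trim33-KD and Smad4-null the count of 2 became 1 with quantile normalization, median centring, the mean of probe sets and a replicate block, and 0 with all probe sets and within the SB431542 or the activin arrays. It was 0 to 2 when 1 array was left out, with 0 on leaving out either Smad4-null-SB array, either Trim33-KD-SB array, or replicate 2 of Smad4-null-ac or Trim33-KD-ac, and 1 without either WT-ac array or Smad4-null-ac replicate 1. The responses and their differences had 0 factors called in every alternative run.

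As a replicate block, the number left 3 factors called between Smad4-null and WT (Nanog was lost) and 1 between Trim33-KD and Smad4-null (Sox2 was lost, adjusted p = 0.0617), and it changed no other call; in the Smad4-null response, where same-numbered arrays had a correlation of -0.192, a fit of only the groups compared called 0 genes with crossed numbers as a block and 0 without a block. Over all genes the 3356 calls between Smad4-null and WT ranged from 1748 (low 18S arrays left out) to 4303, of which 38.6% were raised as deposited and 51.1% with median centring. The 118 between Trim33-KD and WT ranged from 0 (low 18S arrays left out) to 787, with 68.6% raised as deposited and 85.7% with median centring, and the 3350 between Trim33-KD and Smad4-null from 2071 to 4320. The responses had 0 to 11 calls in Smad4-null, 0 to 13 in Trim33-KD and 0 to 14 in WT, and the response differences 0 to 11 and 0 to 2. Why the counts moved was not tested, except that leaving arrays out or testing fewer groups lowers the degrees of freedom.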
